A study of Rattus norvegicus with 241 samples.

Results

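CD45-positive leukocytes sorted from N-nitroso-N-methylurea (NMU)-induced mammary tumors were compared with CD45-positive leukocytes sorted from the normal mammary glands of the same tumor-bearing rats, in animals that had received vehicle. The members were defined by their labels (bulk RNA-seq, CD45-positive sort, control treatment, tumor or gland of a tumor-bearing rat) and comprise 6 of the 241 samples of the series, 3 tumors and 3 glands. All 3 animals were virgin female Sprague Dawley (SD) rats that were gavaged with vehicle for 10 days from 21 days of age, then injected once with NMU, an alkylating carcinogen, at 50 mg/kg, and killed 87 days later. Replicates 1, 2 and 3 of tumor and gland carried the same animal names (C2N, C2R and C5R). The same contrast was also measured in 3 other tumor-bearing SD rats (6 samples) that differed in having been gavaged with the TGFβ receptor inhibitor LY2157299 (TGFBRi, 75 mg/kg) in place of vehicle before NMU. A gland sample therefore comes from an animal that carried both the carcinogen exposure and a tumor elsewhere, and none of these groups is an untreated or tumor-free control.

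CD45, encoded by PTPRC, is the phosphatase found on the surface of all nucleated blood-derived cells, so a CD45 sort collects lymphocytes, macrophages, dendritic cells, mast cells and granulocytes together. In the normal gland, macrophages and lymphocytes lie along the ducts and in the fat pad. In tumors, regulatory T cells, which carry the transcription factor FOXP3, and tumor-associated macrophages are known for restraining cytotoxic lymphocytes, and mast cells for releasing proteases and histamine from granules. In bulk RNA of such a sort, a higher level of a marker can come from more cells of that type or from more RNA in each cell, and these cannot be told apart.

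The 6 libraries held 8572615 to 16330086 reads on genes. Of the 12190 genes listed in both the tumor and the gland table, 12058 passed a sum of 10 rescaled reads (reads divided by size factors set over the 6 libraries together) and were tested. Replicates correlated at 0.79 to 0.83 among tumors, at 0.86 to 0.91 among glands and at 0.72 to 0.79 between the tissues (Pearson's r across genes on the log2 scale; genes are not independent replicates). Tumors were stained for CD45 and EPCAM and glands for CD24, CD29, CD31 and CD45, and the libraries of the 2 tissues were normalized by the authors in separate tables, so tissue, sort and processing cannot be told apart in any difference given here.

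Genes of cells other than leukocytes differed between the sorts of the 2 tissues. The summed level of 12 leukocyte genes (PTPRC, CORO1A, LCP1 and others) was 9939, 15217 and 17211 RPM (reads scaled to a common library total) in the 3 tumors and 6968, 5325 and 5868 in the 3 glands, and 6 of the 12 were called higher in tumors (2 without tumor replicate 2 and 3 without gland replicate 1, 2 or 3). The genes of the fibroblast list took 0.165, 0.176 and 0.359% of reads in the tumors and 4.53, 6.67 and 6.62% in the glands, so every gland lay above every tumor. All 15 fibroblast genes tested were called lower in tumors, with a median log2 change of -4.57 (limma, with p adjusted by Benjamini-Hochberg, where 0.05 or less counts as called throughout). COL1A1, a chain of type I collagen, stood at 1955, 1361 and 6675 rescaled reads in the tumors and 60391, 109953 and 125485 in the glands (log2 change -5.17 ± 0.54, SE, adjusted p = 0.00026). DCN, the matrix proteoglycan decorin, stood at 2200.1, 1772 and 1117 against 25647, 35467 and 64105. Neither gene overlapped between the tissues, and neither was at 0 in any tumor. Genes of luminal epithelium and milk summed to 782, 1088 and 1027 RPM in the tumors and 4925, 5331 and 5830 in the glands, and 14 of 23 were called lower in tumors, among them EPCAM (-3.28 ± 0.39), KRT8 (-4.39 ± 0.49) and the milk protein gene LALBA (-5.17 ± 0.36). That count was 9 without gland replicate 2 or gland replicate 3. Basal epithelial genes summed to 139 to 325 RPM in the tumors and 843 to 1216 in the glands, with 6 of 12 called lower, and with 1, 1 and 2 called when gland replicate 1, 2 or 3 was left out. Endothelial genes summed to 228 to 420.2 and 522 to 701 RPM, and 3 of 15 were called lower (SELP, FLT1 and EGFL7), 1 without gland replicate 1, 2 or 3. With the rat as a block 2 were called lower, and EGFL7 was not.

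**Figure D1:**
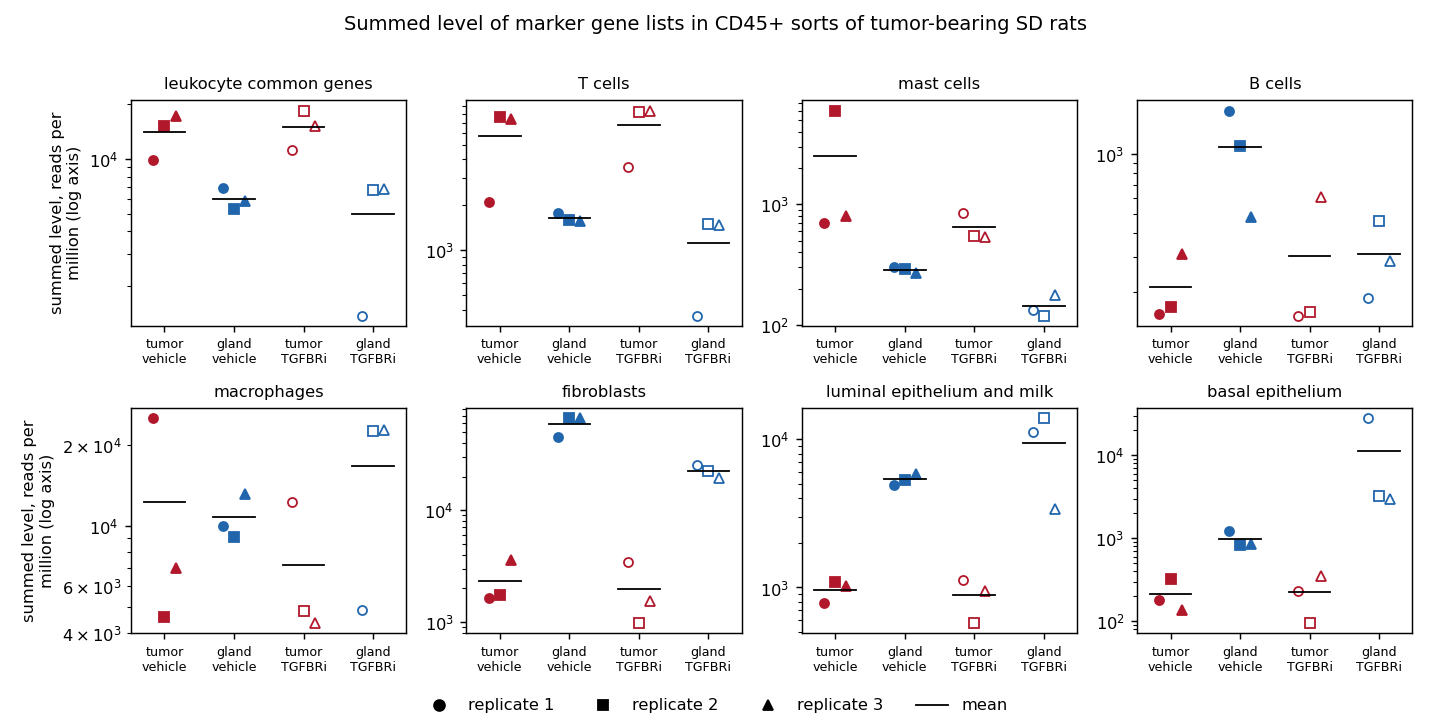
Summed level (RPM, log axis) of 8 marker lists in the 12 CD45-positive libraries of tumor-bearing SD rats; points are libraries, shapes are replicates (the same shape marks the same rat within a treatment), bars are means of 3, and open symbols are TGFBRi-treated rats. Leukocyte genes lie higher and fibroblast and luminal genes lower in each vehicle tumor than in each vehicle gland, and gland replicate 1 of the TGFBRi-treated rats lies apart, low in leukocyte genes and high in basal genes.

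The vehicle comparison was also computed with size factors taken from the 12 leukocyte genes alone, an alternative chosen after the data were seen. The median log2 change of all genes tested was -0.09 with the size factors from all shared genes and -1.30 with those from leukocyte genes. Leaving out every gene at least 2-fold higher in a matched epithelial sort of the same rats (tumor EPCAM-positive, gland luminal or gland basal cells) gave a second view with 5758 genes. Because the filter uses the level in the leukocyte sorts themselves, a gene that is low there is removed more readily, so the counts it leaves are descriptions and no test of a lower call. List counts under both are given beside most lists, and those under the leukocyte scaling are to be read against the 30.2% of all genes that it called lower. Counts with the main setting are to be read against the 2.90% of all genes called higher and the 6.28% called lower. Signs are to be read against the 5686 of 12058 genes tested that had a positive change. How much of any difference comes from fibroblast or epithelial RNA was not tested.

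The expression of 1107 genes differed between the CD45-positive sorts of tumor and gland (9.18% of genes tested), 350 higher in tumors (2.90%) and 757 lower (6.28%). Scaled on leukocyte genes, 50 genes were called higher (0.416%) and 3637 lower (30.2%). Without the genes of the epithelial sorts 164 were higher (2.85%) and 42 lower (0.729%). The values as the authors deposited them gave 178 higher and 1152 lower, so the split of calls between the directions depends on the scaling. With 1 library left out, the share of genes called higher was 3.16%, 1.42% and 2.94% without tumor replicate 1, 2 or 3 and 0.892%, 0.903% and 1.49% without gland replicate 1, 2 or 3. The share called lower was 7.42%, 4.64% and 7.70% without tumor replicate 1, 2 or 3 and 2.97%, 2.32% and 2.72% without gland replicate 1, 2 or 3. Of the 1107 calls, 330 were made in all 6 of those fits. With both libraries of rat 1, 2 or 3 left out, 1.47%, 0.322% and 0.251% were called higher. The shares called lower were then 4.87%, 2.22% and 1.18%. Fitted without trend and robust variances, limma called 0.290% higher and 2.42% lower.

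Among genes with no overlap between the tissues (13.5% of genes tested lay higher in all 3 tumors and 17.2% lower) and a mean of at least 50 rescaled reads, the 10 largest differences toward tumors were MCPT2, FBP1, FXYD4, CPA3, CCR3, XCR1, BIRC5, SNAI3, HDC and DEGS2. MCPT2, CPA3 and HDC are mast cell genes, and CCR3 is the eotaxin receptor of eosinophils, basophils and mast cells. FBP1, a gluconeogenic enzyme, stood at 3574, 50.3 and 289.8 in the tumors and 0, 2.18 and 0.716 in the glands (log2 change 7.74 ± 1.56, adjusted p = 0.012), with tumor replicate 1 far above the other tumors. FXYD4, a small regulator of the sodium pump, stood at 487, 1250.1 and 351 against 29.5, 0 and 0 (7.58 ± 1.40, adjusted p = 0.0077). SNAI3, a zinc finger repressor, stood at 94.6, 133 and 159 against 0, 0.728 and 3.58 (adjusted p = 0.015), and DEGS2, a sphingolipid desaturase and hydroxylase, at 139, 169.6 and 559 against 18.6, 0 and 5.73 (5.54 ± 1.31). All 10 were also called higher with the leukocyte scaling. By edgeR's quasi-likelihood test CPA3 (adjusted p = 0.054), BIRC5 (0.11) and HDC (0.19) were not called, and the fitted change of genes with libraries at 0 depends on the pseudocount.

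Among the 10 largest differences toward glands were PCOLCE2, DACT2, THBS3, ITGA11, PTX3, AOC3, FNDC1, FCER2 and ANGPTL2. PCOLCE2, which assists procollagen processing, stood at 0, 0 and 61.6 rescaled reads in the tumors and 3209, 3797 and 7452 in the glands, and ITGA11, the collagen-binding integrin chain of fibroblasts, at 0, 0 and 18.1 against 1261, 2156 and 2307. PTX3, a secreted pattern recognition protein, stood at 0, 3.14 and 3.62 against 1155, 1924 and 2392. Of these, only the B cell gene FCER2 is a leukocyte marker by the lists used here. For THBS3, a thrombospondin, 1 read was counted over the 3 tumors, a ratio of 3022 with a 95% exact interval of 542 to 119401 that covers counting error only.

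**Figure D2:**
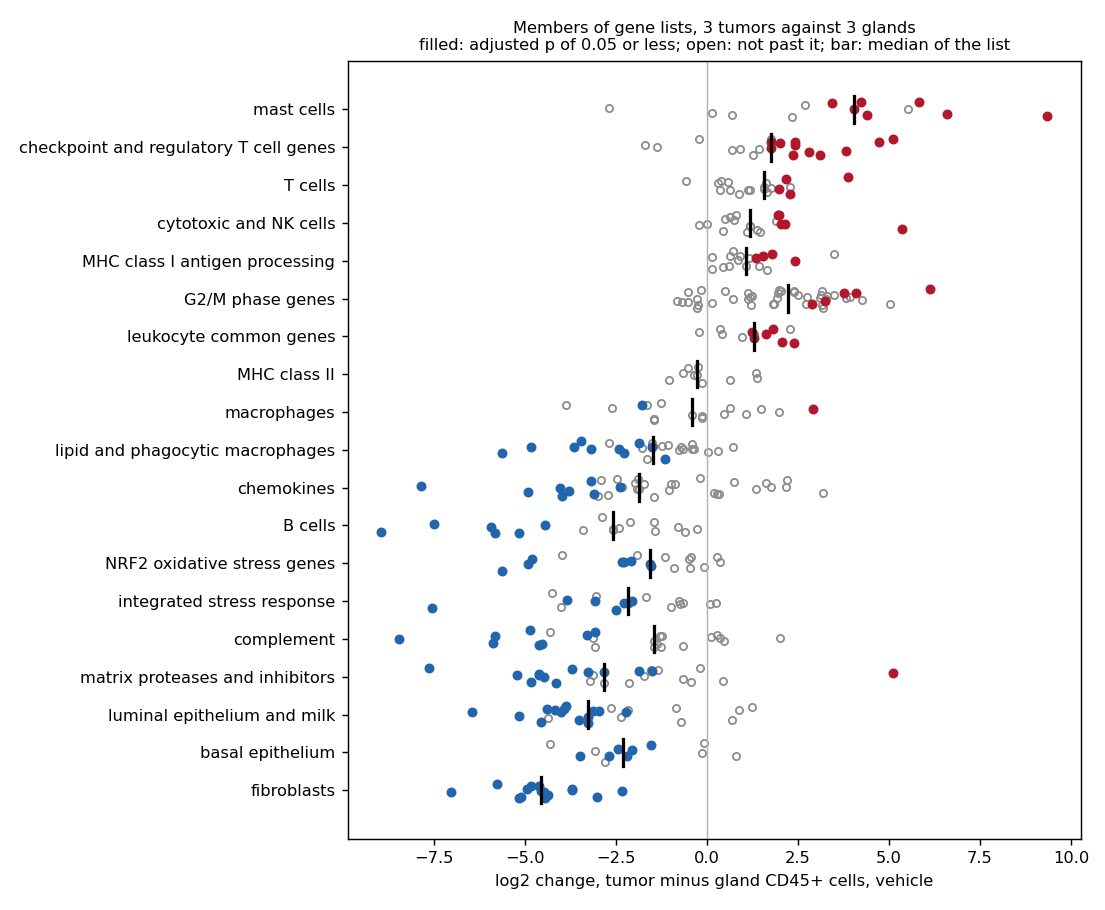
Log2 change (tumor minus gland, vehicle; limma on log2 of rescaled reads plus 1) of each tested member of 19 gene lists; filled points passed an adjusted p of 0.05, open points did not, and bars are list medians. Mast cell, checkpoint and T cell genes lie mostly above 0 and fibroblast, protease, complement and B cell genes below it, beside a median of -0.09 over all genes tested.

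Of the leukocyte lists, mast cell genes had the largest median difference toward tumors. Of 16 genes on the list, 13 were tested and 7 were called higher in tumors, none lower, with a median log2 change of 4.03. The summed level of the list was 699, 6021 and 799.8 RPM in the 3 tumors and 302, 288 and 271 in the 3 glands, so tumor replicate 2 held several times more than the other tumors while all 3 tumors lay above all 3 glands. In the EPCAM-positive sorts of tumors 1, 2 and 3 the list summed to 1494, 563 and 130 RPM. Its RNA was thus not confined to the leukocyte sorts. MCPT2, a mast cell chymase of the rat, stood at 716, 1321 and 504 rescaled reads in the tumors and 0, 0 and 0.716 in the glands, where 1 read was counted in all (3414-fold, 95% exact interval 612 to 134892, adjusted p = 0.00046). CPA3, the granule carboxypeptidase of mast cells, stood at 1624, 14114 and 413 against 95.1, 0 and 109 (log2 change 6.59 ± 1.67, adjusted p = 0.033, and 0.054 with the rat as a block). The tryptases TPSB2 and TPSAB1 stood at 1662, 14195 and 1513 against 253, 95.4 and 214 (4.24 ± 0.76, adjusted p = 0.0068) and at 1106, 6908 and 1598 against 209, 149 and 88.1 (4.03 ± 0.64, adjusted p = 0.0034). The chymase CMA1 showed a change of 3.43 ± 0.65 and FCER1A, the IgE-binding chain of the high-affinity receptor, one of 4.39 ± 1.08, with every tumor above every gland. HDC, which makes histamine, stood at 163, 589 and 84.5 against 0, 0 and 44.4 (adjusted p = 0.047, and 0.055 with the rat as a block). KIT, the receptor for stem cell factor, was not called, at 0, 86.4 and 105.1 against 110.4, 67.7 and 334, nor was IL1RL1, the IL-33 receptor, at 1848, 8445 and 2243 against 2019, 2708 and 1518. Tryptases and chymases are members of families of near-identical copies, so reads may be split among them. Scaled on leukocyte genes, 7 members were called higher with a median of 2.74, and without the genes of the epithelial sorts 4 of 11. The count was 4 without tumor replicate 2 and 3 without gland replicate 2. It fell to 4, 3 and 1 without both libraries of rat 1, 2 or 3.

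The sequences before the starts of 4 of these genes are shown, which are among the 7 of 13 tested that were called higher. GATA2, a factor of mast cells known to bind GATA motifs, was not called, at 9.73, 150 and 111 against 0, 81.6 and 15.8. Promoters of 12 genes of the list were matched by symbol to RefSeq (GRCr8; the reads were aligned to another build, rn6), and 6 of the 7 genes called higher were among them. The motif GATAA was searched on both strands in the 250 bases before each start. It was present before CMA1, CPA3, FCER1A and TPSAB1 (4 of 6, or 66.7%) and not before HDC or TPSB2. Over all members of the list the share was lower, 4 of 10 tested and 6 of 12 matched, beside 23.5% of 33469 promoters and 14.8% of the 9614 that belong to genes tested. These genes were chosen after their values were seen, and a match is a description of letters, not of binding. Each sequence is printed 5′ to 3′ on the strand of the gene, with GATAA or its reverse complement TTATC in capitals. The last base is the base before the start, counted as position -1, and the motif nearest to the start began at position -63 for CMA1, -54 for CPA3, -93 for FCER1A and -29 for TPSAB1.
CMA1 (chr15:33390134-33390383, minus strand): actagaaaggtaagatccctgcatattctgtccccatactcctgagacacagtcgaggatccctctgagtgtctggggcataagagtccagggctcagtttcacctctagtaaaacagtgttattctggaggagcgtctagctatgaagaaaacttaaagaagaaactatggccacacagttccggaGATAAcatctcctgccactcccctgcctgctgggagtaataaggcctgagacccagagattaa
CPA3 (chr2:104673238-104673487, minus strand): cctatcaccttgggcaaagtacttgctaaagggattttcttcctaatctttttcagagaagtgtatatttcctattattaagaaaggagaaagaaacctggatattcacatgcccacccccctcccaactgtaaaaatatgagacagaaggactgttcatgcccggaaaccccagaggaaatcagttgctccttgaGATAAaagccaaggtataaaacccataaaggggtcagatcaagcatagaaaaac
FCER1A (chr13:88224680-88224929, minus strand): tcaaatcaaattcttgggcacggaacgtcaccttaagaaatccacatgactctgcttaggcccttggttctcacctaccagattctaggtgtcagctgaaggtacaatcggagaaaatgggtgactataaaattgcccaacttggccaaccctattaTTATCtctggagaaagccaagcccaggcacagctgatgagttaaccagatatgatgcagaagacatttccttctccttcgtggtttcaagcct
TPSAB1 (chr10:14867303-14867552, minus strand): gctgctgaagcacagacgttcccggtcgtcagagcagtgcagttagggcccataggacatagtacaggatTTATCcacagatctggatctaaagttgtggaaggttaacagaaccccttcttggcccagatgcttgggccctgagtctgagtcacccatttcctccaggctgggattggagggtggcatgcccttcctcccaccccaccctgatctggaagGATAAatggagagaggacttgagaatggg

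Of the eosinophil and basophil list, 8 of 12 genes were tested and CCR3 alone was called. For this list, the leukocyte scaling gave 1 higher and 1 lower (median 2.10, against 2.75 with 5 of 8 positive by the scaling on all genes), and 1 were higher and 0 lower of 7 outside the epithelial sorts. CCR3 stood at 453, 1370.2 and 238 in the tumors and 8.74, 0 and 18.6 in the glands (log2 change 6.52 ± 1.23, adjusted p = 0.0086). The eosinophil granule genes PRG2 (0, 0 and 3.62 against 43.7, 15.3 and 1.43) and PRG3 (0, 6.28 and 21.7 against 0, 0 and 0) were low in both tissues and not called. The basophil protease gene MCPT8 stood at 20.9, 386 and 70.04 against 7.65, 3.64 and 9.31 and was not called (adjusted p = 0.13). Neutrophil genes were low in both tissues, S100A8 at 178, 494 and 153 against 83.1, 85.9 and 33 and CSF3R at 0, 99.7 and 175 against 124, 88.1 and 173. The only member of the 17 tested that was called was LCN2, lower in tumors (-4.18 ± 0.40), which at 4444 RPM was also abundant in the luminal cells of the same rats. For neutrophil genes, the leukocyte scaling gave 0 higher and 2 lower (median -0.06, against 0.62 with 12 of 17 positive by the scaling on all genes), and 0 were higher and 0 lower of 10 outside the epithelial sorts.

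**Figure D3:**
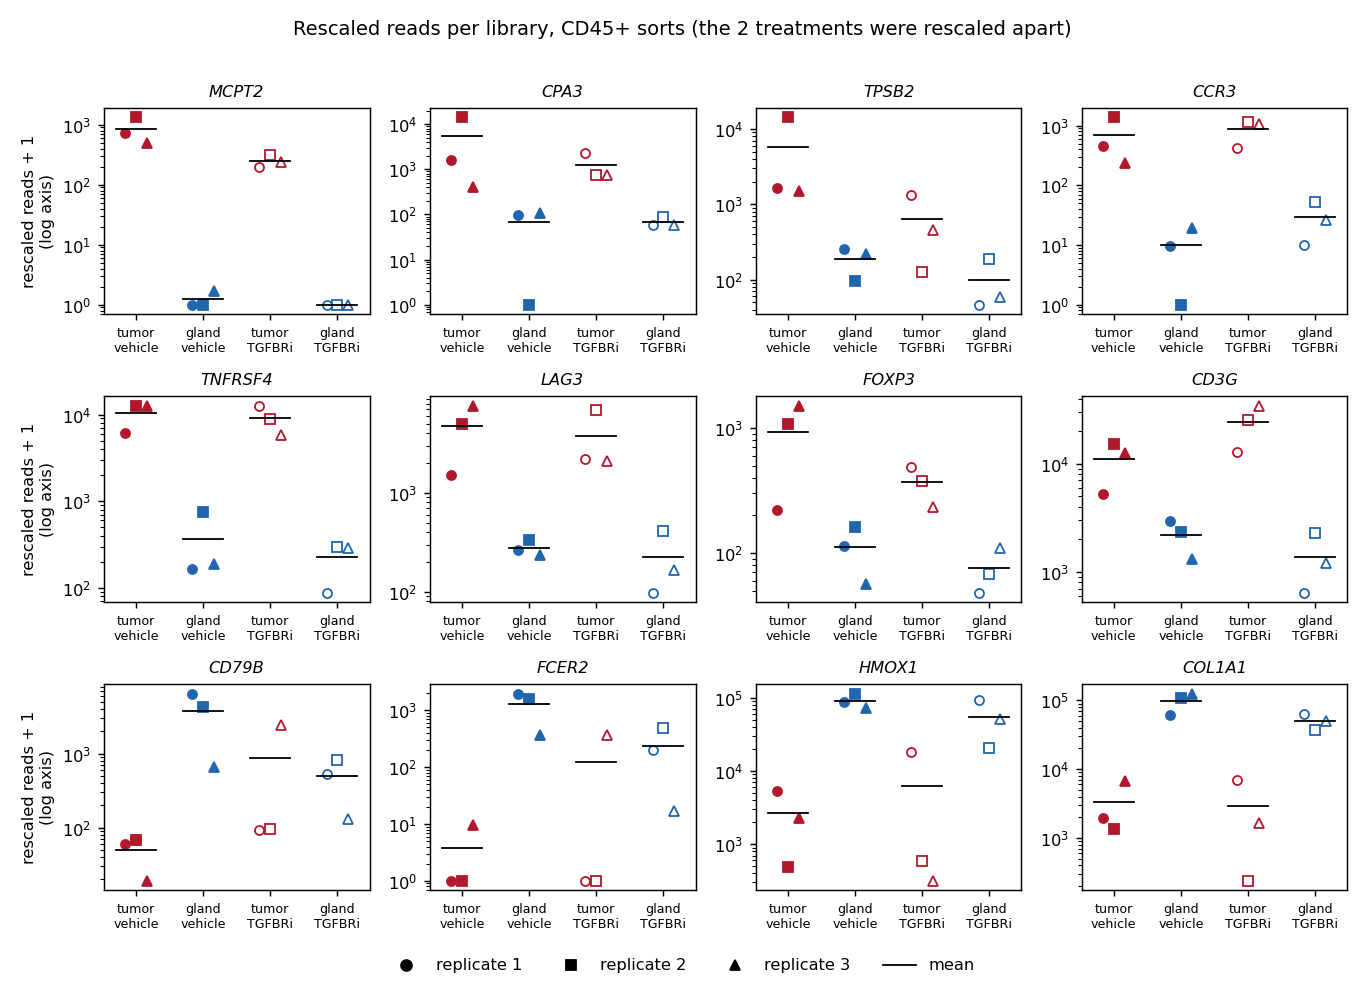
Rescaled reads plus 1 (log axis) of 12 genes in each CD45-positive library; points are libraries, shapes are replicates, bars are means of 3, and the libraries of the 2 treatments were rescaled apart. In vehicle rats the 8 genes of the upper rows lie higher in all 3 tumors than in all 3 glands and the 4 genes of the bottom row lower.

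Part of the genes of regulatory and activated T cells were higher in tumors. Of the checkpoint and regulatory T cell list, 19 of 23 genes were tested and 11 were called higher, none lower (median log2 change 1.77). FOXP3, the factor that defines regulatory T cells, stood at 221, 1072 and 1511 rescaled reads in the tumors and 114, 159 and 55.9 in the glands (log2 change 2.81 ± 0.72, adjusted p = 0.035). CTLA4, an inhibitory receptor of regulatory T cells, stood at 232, 1095 and 669 against 168, 83.8 and 78.8 (2.41 ± 0.64, adjusted p = 0.039, and 0.059 with the rat as a block). For both genes the lowest tumor, replicate 1, lay less than 2-fold above the highest gland. The costimulatory receptors of the TNF receptor family were further apart. TNFRSF4 (OX40) stood at 6141, 12531 and 12705 against 164, 754 and 188 (5.11 ± 0.56, adjusted p = 0.00036), TNFRSF9 (4-1BB) at 6518, 10008 and 12399 against 1277, 1185 and 819.5 (3.12 ± 0.36) and TNFRSF18 (GITR) at 2466, 5529 and 3961 against 613, 871 and 733 (2.37 ± 0.38). LAG3, an inhibitory receptor that binds MHC class II, stood at 1516, 5025 and 7664 against 260.2, 335 and 235 (3.82 ± 0.54, adjusted p = 0.0016). ICOS (2.41 ± 0.38), IL2RA, the high-affinity IL-2 receptor chain (2.00 ± 0.44), and IKZF2, encoding Helios of regulatory T cells (4.72 ± 1.09), were also called higher. HAVCR2 (TIM-3), at 434, 378 and 447 against 121, 197 and 721, and the ligand gene CD274 (PD-L1), at 152, 186 and 70.04 against 279, 261 and 491, were not called. For checkpoint and regulatory T cell genes, the leukocyte scaling gave 4 higher and 1 lower (median 0.47, against 1.77 with 16 of 19 positive by the scaling on all genes), and 9 were higher and 0 lower of 17 outside the epithelial sorts. The 4 called higher under that scaling were TNFRSF4 (3.82), IKZF2 (3.50), LAG3 (2.53) and TNFRSF9 (1.82), whereas FOXP3 was not (adjusted p = 0.13). The count was 6 without tumor replicate 2 and 5, 7 and 7 without gland replicate 1, 2 or 3. It was 10, 4 and 1 without both libraries of rat 1, 2 or 3.

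Of the T cell list, 4 of 19 genes tested were called higher in tumors and none lower, with a median of 1.56. CD3G, a chain of the T cell receptor complex, stood at 5276, 15156 and 12587 against 2926, 2315 and 1302 (log2 change 2.28 ± 0.45, adjusted p = 0.011), and the adhesion receptor CD2 at 2587, 7721 and 7591 against 1237, 1120.1 and 1195 (2.17 ± 0.43). CD3E, at 2500.4, 8286 and 11406 against 2449.7, 2154 and 1729 (1.56 ± 0.50, adjusted p = 0.078), and CD3D (1.62 ± 0.51, adjusted p = 0.07) did not pass. In tumor replicate 1 the levels of CD3E and CD3D lay within 1.5-fold of the highest gland, and without that library 12 members were called higher. Without gland replicate 1, 2 were called, and without both libraries of rat 1, 2 or 3 the count was 11, 1 and 0. TRAT1, an adaptor that stabilizes the T cell receptor, stood at 1919, 7423 and 1026 against 261, 192 and 89.5 (3.88 ± 0.67) and was the one member called higher under the leukocyte scaling (2.59). For T cell genes, the leukocyte scaling gave 1 higher and 1 lower (median 0.27, against 1.56 with 18 of 19 positive by the scaling on all genes), and 4 were higher and 0 lower of 19 outside the epithelial sorts. CD4 stood at 2161, 2099 and 3829 against 1094, 2250.5 and 3338 and CD8A at 466, 1440.1 and 1589 against 559.7, 804 and 724, and neither was called.

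Of the cytotoxic and NK cell list, 5 of 18 genes tested were called higher. They were GZMM, a granzyme, at 3097, 9900.2 and 5035 against 1666, 911 and 1168 (2.15 ± 0.44), NKG7, a granule membrane protein, at 2639.5, 7981 and 3902 against 1257, 867 and 1289 (1.96 ± 0.43), KLRK1 (NKG2D), at 612, 517 and 331 against 118, 85.2 and 168 (adjusted p = 0.036, and 0.065 with the rat as a block), CST7, a cystatin of cytotoxic and myeloid cells (2.02 ± 0.52), and SAMD3 (5.35 ± 1.34), which was named after its values were seen. The main killing genes were not called. PRF1, perforin, stood at 349, 1888 and 848 against 646, 752 and 453, GZMA at 634, 84.8 and 51.9 against 345, 51.7 and 251 and GZMB at 25, 164 and 43.5 against 25.1, 9.47 and 60.2, with overlapping tissues in each case. For the cytotoxic list, the leukocyte scaling gave 1 higher and 0 lower (median 0.01, against 1.17 with 16 of 18 positive by the scaling on all genes), and 2 were higher and 0 lower of 17 outside the epithelial sorts. With 1 library left out the count fell to 3 without tumor replicate 1 or tumor replicate 2 and to 1, 0 and 2 without gland replicate 1, 2 or 3. Leaving out both libraries of rat 1, 2 or 3 gave 2, 0 and 0.

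Genes of MHC class I presentation, which shows peptides to CD8 T cells, were positive in all 17 genes tested, with 4 called (median 1.06). Over all genes tested, 5686 of 12058 were positive and 2.90% were called higher. B2M, the shared light chain, stood at 126204, 157859.9 and 89856 against 41009, 52820 and 34542 (log2 change 1.53 ± 0.33, adjusted p = 0.016), PSMB9, an immunoproteasome subunit, at 12897, 4962 and 7801 against 1699, 1281 and 1488 (2.42 ± 0.38), PSMB8 at 5228, 3144 and 5765 against 1818, 948 and 1364 (1.78 ± 0.38) and PSME2, a proteasome activator, at 7405, 4316 and 5239 against 2581, 2481 and 1582 (1.35 ± 0.35). TAP1, the peptide transporter, was not called at 3014, 2984 and 4258 against 3229, 3672 and 2507. For class I genes, the leukocyte scaling gave 1 higher and 2 lower (median -0.23, against 1.06 with 17 of 17 positive by the scaling on all genes), and 3 were higher and 0 lower of 16 outside the epithelial sorts. Under that scaling PSMB9 alone stayed called higher (1.13) and TAP1 was called lower (-1.17, adjusted p = 0.025). The count was 2 without gland replicate 1 or gland replicate 2, and 2, 1 and 0 without both libraries of rat 1, 2 or 3. None of the 10 MHC class II genes tested was called by limma (median -0.27; 0 at an unadjusted p below 0.05, 0 called by edgeR and 0 by DESeq2). For class II genes, the leukocyte scaling gave 0 higher and 4 lower (median -1.56, against -0.27 with 3 of 10 positive by the scaling on all genes), and 0 were higher and 0 lower of 10 outside the epithelial sorts. RT1-DA stood at 268271, 36987 and 99032 in the tumors and 116159, 140375 and 129332 in the glands, so that tumor replicate 1 lay above and tumor replicates 2 and 3 below all glands. Of 36 interferon-stimulated genes tested, 5 were called higher (ISG20, MX1, OAS1A, IFI27 and ZBP1) and 2 lower (IFIT3 and OASL). The shares over all genes tested were 2.90% higher and 6.28% lower. ZBP1, a sensor of nucleic acids, stood at 562, 459 and 1041 against 56.8, 49.5 and 73.1 (3.43 ± 0.54) and IFI27 at 41192, 37691 and 40302 against 12212, 12361 and 7590 (1.92 ± 0.31), whereas OASL stood at 4065, 801 and 1509.5 against 15230.5, 11791 and 5858 (-2.58 ± 0.56). For interferon-stimulated genes, the leukocyte scaling gave 1 higher and 10 lower (median -0.58, against 0.71 with 22 of 36 positive by the scaling on all genes), and 2 were higher and 1 lower of 19 outside the epithelial sorts. The number called higher was 3 without tumor replicate 3, gland replicate 2 or gland replicate 3.

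Macrophage genes spanned a wider range among the tumors than among the glands. The macrophage list summed to 25109, 4591 and 6951 RPM in the tumors and 10016, 9115 and 13109 in the glands, and 1 of 17 genes was called higher and 1 lower, beside 2.90% and 6.28% of all genes tested. CD68 stood at 6303, 684 and 2895 against 2449, 2492 and 4805 and CSF1R, the receptor for the macrophage growth factor, at 3721, 945 and 1448 against 4365, 3215 and 7441, neither called. CLEC4A3, a C-type lectin receptor, was higher (3289, 484 and 551 against 62.3, 151 and 209.9, 2.92 ± 0.74). For the macrophage list, the leukocyte scaling gave 0 higher and 8 lower (median -1.70, against -0.41 with 6 of 17 positive by the scaling on all genes), and 0 were higher and 0 lower of 16 outside the epithelial sorts. Of the 10 genes of resident macrophages tested, GAS6, a ligand for apoptotic cell uptake (-2.34 ± 0.43), and the chemokine PF4 (-2.40 ± 0.63) were called lower, and LYVE1, FOLR2 and CD163 were not. The resident list summed to 272 to 1823 RPM in the tumor and 926 to 1250 in the gland leukocyte sorts. Gland basal cells of the same rats held 1141 to 1645, luminal cells 306 to 1487 and tumor EPCAM-positive cells 236 to 937. Its RNA was thus not particular to macrophages in these rats. For resident macrophage genes, the leukocyte scaling gave 0 higher and 6 lower (median -2.52, against -1.23 with 2 of 10 positive by the scaling on all genes), and 0 were higher and 0 lower of 9 outside the epithelial sorts. With tumor replicate 1 left out, 3 were called, and with any other library left out, 1.

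Of 26 genes of lipid-laden and phagocytic macrophages, 10 were called lower in tumors and none higher (median -1.49), with 6 lower by edgeR. The list summed to 6411 to 13319 RPM in the tumor and 39614 to 46451 in the gland leukocyte sorts. Gland basal cells of the same rats held 73425 to 79899, luminal cells 27688 to 43195 and tumor EPCAM-positive cells 17828 to 31411. The list was thus not particular to macrophages in these rats. HMOX1, the heme-degrading enzyme, stood at 5312, 479.8 and 2263 rescaled reads in the tumors and 87119, 114618 and 72993 in the glands (log2 change -5.65 ± 0.68, adjusted p = 0.00058), and GPNMB, a lysosomal membrane glycoprotein, at 135, 279 and 298 against 1702, 1769 and 2962 (-3.21 ± 0.44). APOE, the lipid carrier, stood at 46961, 10473 and 8637 against 188214, 249535 and 123524 (-3.47 ± 0.57) and was also high in gland basal cells, at 55881 RPM. SPP1 and TREM2, both markers of tumor-associated macrophages, were not called, SPP1 at 535, 244 and 128 against 156, 70.6 and 792 and TREM2 at 1552, 73.8 and 58 against 537, 733 and 398. The called members include FN1 and MMP14, which fibroblasts also make, and the genes of the fibroblast list took 4.53 to 6.67% of gland reads against 0.165 to 0.359% of tumor reads. Their part in these levels was not tested. For the lipid and phagocytic list, the leukocyte scaling gave 0 higher and 21 lower (median -2.78, against -1.49 with 3 of 26 positive by the scaling on all genes), and 0 were higher and 1 lower of 11 outside the epithelial sorts. The count was 17 without tumor replicate 1, 5 without tumor replicate 2 or 3, and 6, 4 and 6 without gland replicate 1, 2 or 3. Leaving out both libraries of rat 1, 2 or 3 gave 15, 3 and 1. Of 11 monocyte genes tested, 2 were higher (S100A4, 1.36 ± 0.33, and LY6C, 2.22 ± 0.55) and 2 lower (VCAN, -3.52 ± 0.71, and ACE, -4.92 ± 0.47), with 1 lower without gland replicate 1, 2 or 3. With the rat as a block LY6C was not called. For monocyte genes, the leukocyte scaling gave 0 higher and 3 lower (median -0.83, against 0.46 with 7 of 11 positive by the scaling on all genes), and 1 were higher and 0 lower of 8 outside the epithelial sorts. Of the dendritic cell list, 19 genes were tested and XCR1, the receptor that marks cross-presenting dendritic cells, alone was called, at 206, 73.8 and 91.8 against 0, 0 and 2.15 (3 reads in all glands, a ratio of 138 with a 95% exact interval of 46.9 to 675). For dendritic cell genes, the leukocyte scaling gave 1 higher and 5 lower (median -0.53, against 0.76 with 11 of 19 positive by the scaling on all genes), and 0 were higher and 0 lower of 11 outside the epithelial sorts.

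Part of the B cell genes were lower in tumors. All 17 genes tested of 18 had negative changes (median -2.59), and 6 were called lower. The list summed to 154, 167 and 311 RPM in the tumors and 1669, 1108 and 478 in the glands. CD79B, a signalling chain of the B cell receptor, stood at 59.8, 66.7 and 18.1 rescaled reads in the tumors and 6449, 4239 and 662 in the glands (log2 change -5.94 ± 0.81, adjusted p = 0.0013). FCER2 (CD23), of follicular B cells, stood at 0, 0 and 8.45 against 1973, 1602 and 369 (-8.96 ± 1.20, adjusted p = 0.0012). MS4A1 (CD20) stood at 68.1, 35.3 and 0 against 1070.2, 678 and 162 (-5.18 ± 1.43, adjusted p = 0.046, and 0.071 by edgeR). Gland replicate 3 was the lowest of the glands for these 3 genes and still lay above every tumor. Scaled on leukocyte genes, 14 members were called lower with a median of -3.84, and without the genes of the epithelial sorts 4 of 14. The count was 3 without gland replicate 1, 2 or 3, and 4, 2 and 3 without both libraries of rat 1, 2 or 3. Normal mammary fat pads hold a lymph node, and markers of lymph node stroma moved in part with these genes, CCL21 at 496, 272 and 376 against 2563, 8317 and 1508 (-3.10 ± 0.56) and CCL19 at 30.6, 0 and 3.62 against 43.7, 37.1 and 42.3, not called. Their part in the B cell result was not tested. Of 10 plasma cell genes tested, 2 were called lower, POU2AF1 (-4.98 ± 1.37, adjusted p = 0.045, and 0.068 by edgeR) and SDC1 (-1.95 ± 0.37), which gland epithelium also expressed. For plasma cell genes, the leukocyte scaling gave 0 higher and 3 lower (median -1.58, against -0.59 with 4 of 10 positive by the scaling on all genes), and 0 were higher and 0 lower of 8 outside the epithelial sorts. XBP1 was not called, at 4787, 3152 and 5107 against 3029, 3693 and 3381. The count was 0 without gland replicate 1 and 1 without gland replicate 2 or 3.

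Of the chemokine genes, 8 of 33 tested were called lower in tumors and none higher, with a median of -1.86. With the rat as a block 13 were called lower, by edgeR 4, and in 1 fit of the 12 samples of both treatments 3. CXCL12, a stromal chemokine that retains lymphocytes, stood at 102.9, 313 and 109 against 2442, 6485 and 6282 (log2 change -4.92 ± 0.53, adjusted p = 0.00035), and the neutrophil attractant CXCL1 at 38210.4, 2734 and 4554 against 123084, 141270 and 108902 (-3.99 ± 0.75, adjusted p = 0.0087, and 0.074 by edgeR). CCL20, which attracts CCR6-positive cells, stood at 1.39, 0 and 0 against 172, 841 and 203 (-7.85 ± 1.26). CCL2, the monocyte attractant, was not called, at 95004, 22409.6 and 4082 against 99335, 183700.1 and 61525 (adjusted p = 0.12, and 0.048 with the rat as a block), nor was CCL3, at 6855, 538 and 810.3 against 11219, 8709 and 5227 (adjusted p = 0.07, and 0.018 with the block). The chemokine list summed to 2365 to 20290 RPM in the tumor and 21558 to 34945 in the gland leukocyte sorts. Luminal cells of the same rats held 25717 to 68214, gland basal cells 7019 to 10253 and tumor EPCAM-positive cells 5691 to 9559. The part of epithelial RNA in these levels was not tested. For chemokines, the leukocyte scaling gave 0 higher and 18 lower (median -3.04, against -1.86 with 10 of 33 positive by the scaling on all genes), and 0 were higher and 0 lower of 18 outside the epithelial sorts. The count was 18 without tumor replicate 1, 5 without tumor replicate 2 or 3, and 5, 4 and 5 without gland replicate 1, 2 or 3. Leaving out both libraries of rat 1, 2 or 3 gave 15, 2 and 1. Of 18 receptors tested, 4 were higher (among them CCR3, CCR4 and XCR1) and 2 lower (ACKR2 and ACKR3), and by edgeR 2 and 1, without CCR4 (adjusted p = 0.064) and ACKR2 (0.064). CCR4, of regulatory and helper T cells, stood at 211, 622 and 809 against 40.4, 60.4 and 168 (2.65 ± 0.71, adjusted p = 0.041) and the scavenging receptor ACKR3 at 55.6, 5.5 and 91.8 against 4776, 7623 and 12789 (-7.90 ± 0.83). For chemokine receptors, the leukocyte scaling gave 2 higher and 6 lower (median -1.27, against 0.01 with 9 of 18 positive by the scaling on all genes), and 1 were higher and 0 lower of 14 outside the epithelial sorts. The number higher was 2 without tumor replicate 2 and 1 without gland replicate 1 or 2.

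Of 28 inflammatory cytokine genes, 5 were called lower in tumors and none higher (3 lower by edgeR and 3 in 1 fit of 12 samples). CSF1, the macrophage growth factor, stood at 138, 240.3 and 88.2 against 1930.5, 4474 and 5568 (log2 change -4.66 ± 0.51), CSF3 at 446, 96.6 and 58 against 2068, 2584 and 1247 (-3.78 ± 0.67), IL6 at 674, 95.8 and 35 against 1405, 2455 and 1555 (-3.72 ± 0.85, adjusted p = 0.021, and 0.1 by edgeR), and CSF2 (-5.25 ± 1.28) and IL33 (-3.09 ± 0.72) also passed. IL1B stood at 41135, 2659.6 and 4689 against 8109.9, 7397 and 11649 and IL1A at 8123, 134 and 139 against 685, 487 and 728, so that tumor replicate 1 was high and neither gene was called. For cytokine genes, the leukocyte scaling gave 0 higher and 8 lower (median -1.48, against -0.19 with 12 of 28 positive by the scaling on all genes), and 0 were higher and 0 lower of 16 outside the epithelial sorts. The count was 10 without tumor replicate 1 and 2 without gland replicate 1, 2 or 3.

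Of the complement genes, the number lower in tumors was 8 of 23 tested, with none higher (median -1.46). C4B stood at 26.4, 84 and 203 against 20071, 31790.3 and 32987 (log2 change -8.47 ± 0.61, adjusted p = 3.3e-05), its near-identical copy C4A at 302, 50.3 and 188 against 6132, 11845 and 8295 (-5.88 ± 0.58), and the C1 proteases C1R and C1S showed changes of -4.63 ± 0.36 and -4.53 ± 0.43. Fibroblasts are known to make these genes. Fibroblast genes took 4.53 to 6.67% of gland reads, and their part was not tested. C1QA, C1QB and C1QC, the C1q chains made by macrophages, were not called (C1QA at 33965, 1729 and 2484 against 14077, 12595 and 11492). The count was 14 without tumor replicate 1 and 5 without gland replicate 2. For complement genes, the leukocyte scaling gave 0 higher and 16 lower (median -2.75, against -1.46 with 5 of 23 positive by the scaling on all genes), and 0 were higher and 1 lower of 13 outside the epithelial sorts. Matrix proteases and their inhibitors were lower in 12 of 24 tested and higher in 1 (median -2.84, and -2.49 with genes at 0 in a tissue set at their bound). MMP2, a gelatinase, stood at 679, 773 and 813 against 13401, 21349 and 16546 (-4.48 ± 0.32) and ADAMTS1 at 0, 17.3 and 33.8 against 1171, 1065 and 4020.3 (-7.64 ± 1.17). For the protease list, the leukocyte scaling gave 1 higher and 19 lower (median -3.78, against -2.84 with 2 of 24 positive by the scaling on all genes), and 0 were higher and 0 lower of 3 outside the epithelial sorts. The exception was MMP7, matrilysin, at 2574, 73 and 258 against 12, 16 and 4.3 (5.12 ± 1.24, adjusted p = 0.028). It stood at 11.7 RPM in the EPCAM-positive cells of the same tumors, and tumor replicate 1 was again the highest.

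The rats of this comparison had received no inhibitor, and genes of the TGFβ pathway were examined because other rats of the series had. Of 29 genes tested of 34, 7 were lower in tumors and 2 higher. Among the ligands, TGFB1 was not called, at 1719, 999 and 2020.4 against 1172, 546 and 1243, and TGFB2 was lower (0, 0 and 21.7 against 180.4, 245 and 234, log2 change -6.27 ± 1.43, adjusted p = 0.021, and 0.089 by edgeR). ITGB8, an integrin chain that releases active TGFβ, was higher at 464, 644 and 376 against 10.9, 33.5 and 26.5 (4.43 ± 0.70, adjusted p = 0.0034). The receptor TGFBR2 was lower, at 236, 142 and 373 against 1251, 1683 and 2289 (-2.86 ± 0.45), as were the latent binding proteins LTBP1 (-7.24 ± 1.18), LTBP3 (-4.28 ± 1.20) and LTBP4 (-6.69 ± 1.36). LRRC32 (GARP), which anchors latent TGFβ, was lower at 278, 164 and 488 against 852, 2218 and 1264 (-2.24 ± 0.51). Of the targets, THBS1 was lower (-5.69 ± 0.63) and ID2, an inhibitor of helix-loop-helix factors, higher (17158, 6120.1 and 5671 against 1278, 1131 and 2200, 2.52 ± 0.46). The count lower was 3 without gland replicate 2 and 4 without gland replicate 3. The list summed to 1764 to 2224 RPM in the tumor and 2872 to 4722 in the gland leukocyte sorts. Gland basal cells held 7004 to 11020, luminal cells 1232 to 4221 and tumor EPCAM-positive cells 3138 to 5322. Fibroblast genes took 4.53 to 6.67% of gland reads. The part of fibroblast or epithelial RNA in these levels was not tested. For TGFβ pathway genes, the leukocyte scaling gave 1 higher and 19 lower (median -2.36, against -1.08 with 8 of 29 positive by the scaling on all genes), and 1 were higher and 0 lower of 8 outside the epithelial sorts.

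Part of the stress genes were lower in tumors. Of 18 targets of NRF2, the factor of the oxidative stress response, 8 were lower and none higher (median -1.57). For NRF2 targets, the leukocyte scaling gave 0 higher and 16 lower (median -2.86, against -1.57 with 2 of 18 positive by the scaling on all genes), and 0 were higher and 6 lower of 9 outside the epithelial sorts. The NRF2 list summed to 10736 to 14772 RPM in the tumor and 34294 to 37720 in the gland leukocyte sorts. Luminal cells of the same rats held 23424 to 55806, gland basal cells 21248 to 28100 and tumor EPCAM-positive cells 8071 to 11609. NQO1, a quinone reductase, stood at 156, 52.6 and 333 against 4481, 4494 and 3834 (log2 change -4.92 ± 0.57), SRXN1, sulfiredoxin, at 359, 163 and 498 against 7484, 8153 and 11027 (-4.83 ± 0.43) and TXNRD1, thioredoxin reductase, at 1709, 1834 and 1969.6 against 7102, 9776 and 11362 (-2.33 ± 0.32). No tumor overlapped a gland for any of these 3 genes. Of 17 genes of the integrated stress response, which the factor ATF4 drives, 7 were lower, among them CHAC1 (0, 0 and 363 against 1195, 1156 and 1830.4, -7.58 ± 1.83, adjusted p = 0.027, and 0.25 by edgeR), TRIB3 (90.4, 435 and 502 against 2099.9, 2826 and 2075, -3.09 ± 0.59) and SESN2 (-2.50 ± 0.36). ATF4 and DDIT3 (CHOP) were not called. For integrated stress response genes, the leukocyte scaling gave 0 higher and 16 lower (median -3.48, against -2.19 with 2 of 17 positive by the scaling on all genes), and 0 were higher and 3 lower of 9 outside the epithelial sorts. That list summed to 3302 to 5099 RPM in the tumor and 9635 to 10005 in the gland leukocyte sorts. Gland basal cells held 15842 to 16290, luminal cells 5314 to 11760 and tumor EPCAM-positive cells 5119 to 7341. The part of epithelial RNA in either list was not tested. Of 22 immediate early genes, which dissociation of tissue is known to induce, 4 were lower (EGR1, ATF3, ZFP36 and KLF6) and JUNB higher. EGR1 stood at 674, 618 and 1035 against 5047, 5675 and 8194 (-3.03 ± 0.35), and FOS was not called, at 8223, 10942 and 15361 against 18751, 20519.9 and 27239. JUNB, at 49856, 86666 and 65363 against 33033, 30217 and 26741 (1.13 ± 0.31, adjusted p = 0.046, and 0.1 by edgeR), turned negative under the leukocyte scaling (-0.16). For immediate early genes, the leukocyte scaling gave 0 higher and 16 lower (median -1.95, against -0.66 with 5 of 22 positive by the scaling on all genes), and 0 were higher and 0 lower of 9 outside the epithelial sorts. The number of immediate early genes lower was 2 without tumor replicate 2 or without any 1 gland. The hypoxia and glycolysis list was mixed, with a summed level of 10691, 8515 and 10672 RPM in the tumors and 7005, 6579 and 7761 in the glands, every tumor above every gland. In the TGFBRi-treated rats every tumor lay below every gland. There the list summed to 7247, 7658 and 5209 RPM in the tumors and 9956, 8009 and 8057 in the glands. In the vehicle rats, NDRG1 (-2.67 ± 0.37), ADM (-3.40 ± 0.52), PFKFB3 and HK1 of this list were lower and MXI1 higher (1.72 ± 0.46, adjusted p = 0.041, and 0.054 with the rat as a block and 0.084 by edgeR), of 29 tested. Over all genes tested 2.90% were called higher and 6.28% lower. With the rat as a block PFKFB3 was not called. For hypoxia and glycolysis genes, the leukocyte scaling gave 0 higher and 9 lower (median -0.63, against 0.66 with 21 of 29 positive by the scaling on all genes), and 0 were higher and 0 lower of 15 outside the epithelial sorts. Their number lower was 2 without tumor replicate 1 or without any 1 gland. Tumors and glands were dissociated separately, and the part of handling in these levels was not tested.

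A few genes of the cell cycle were higher in tumors, and their calls depend on the scaling. Of 44 G2 and M phase genes tested, 5 were called higher, none lower, with a median of 2.22. For G2 and M phase genes, the leukocyte scaling gave 1 higher and 2 lower (median 1.21, against 2.22 with 36 of 44 positive by the scaling on all genes), and 3 were higher and 0 lower of 26 outside the epithelial sorts. BIRC5, survivin, stood at 401, 102.1 and 191 against 0, 0 and 22.2 (log2 change 6.13 ± 1.48, adjusted p = 0.028), UBE2C at 274, 177 and 250 against 12, 42.2 and 7.88 (3.76 ± 0.91) and CDK1, the mitotic kinase, at 492, 208 and 165 against 63.4, 26.2 and 10.7 (3.23 ± 0.87, adjusted p = 0.042, and 0.056 by edgeR). TOP2A, at 207, 124 and 80.9 against 12, 7.28 and 12.9 (adjusted p = 0.055), and MKI67, at 309, 77.7 and 79.7 against 39.4, 2.18 and 15 (adjusted p = 0.12), did not pass. The count was 0 without tumor replicate 2, 3 without tumor replicate 3 and 1, 2 and 1 without gland replicate 1, 2 or 3. It was 1, 0 and 0 without both libraries of rat 1, 2 or 3. Of 31 S phase genes, TK1 (2.60 ± 0.63) and PCNA (3143, 5186 and 3261 against 1159, 1196 and 1692) were higher and MCM2, MCM3 and MCM4 were not called. For S phase genes, the leukocyte scaling gave 0 higher and 4 lower (median -0.62, against 0.57 with 22 of 31 positive by the scaling on all genes), and 1 were higher and 0 lower of 24 outside the epithelial sorts. With any 1 library left out, at most 1 S phase gene was called.

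**Figure D4:**
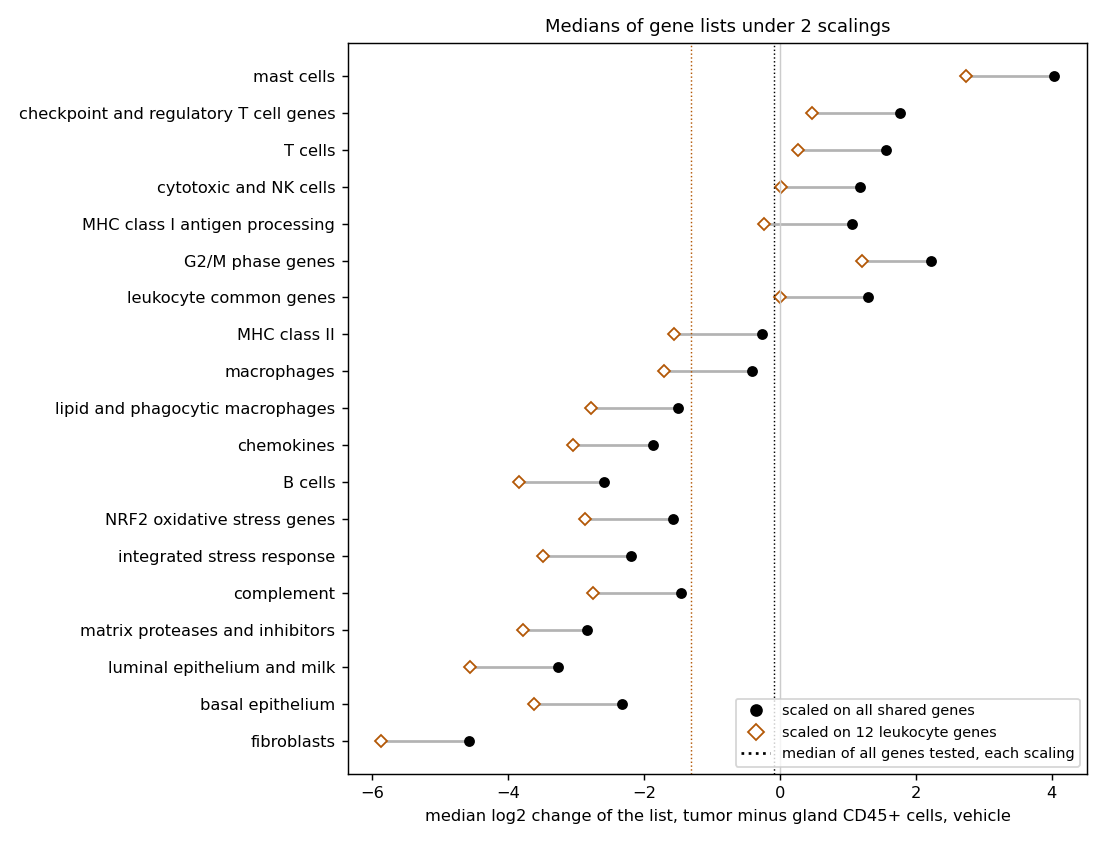
Median log2 change (tumor minus gland, vehicle) of 19 gene lists with size factors from all shared genes (filled circles) and from 12 leukocyte genes (open diamonds); dotted lines are the medians of all genes tested under each, -0.09 and -1.30. Mast cell and G2/M lists stay well above 0 under both, T cell, cytotoxic and class I lists move to near 0, and the lists below 0 move further down.

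The same contrast in the 3 TGFBRi-treated rats shares no sample with the vehicle rats. There, 1001 of 12024 genes were called higher in tumors (8.33%) and 1324 lower (11.01%), 19.3% in either direction. Gland replicate 1 of that set stood apart, with leukocyte genes at 1378, 6778 and 6884 RPM and basal epithelial genes at 28109, 3215 and 2949 in gland replicates 1, 2 and 3, and without it 567 genes were higher and 480 lower. Without the other libraries the counts of higher and lower genes were 1134 and 1719 (without tumor replicate 1), 600 and 966 (tumor replicate 2), 437 and 848 (tumor replicate 3), 624 and 534 (gland replicate 2) and 482 and 459 (gland replicate 3). Of the 350 genes called higher in vehicle tumors, 338 had the same sign (96.6%) and 232 were called, and of the 757 called lower, 751 had the same sign (99.2%) and 473 were called, beside 74.7% with the same sign over 11892 genes tested in both. None was called in the other direction. Without the gland library that stood apart, the numbers with the same sign were 333 and 745, the numbers called 152 and 210, and the background 73.3%.

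The difference between the contrasts of the 2 treatments was called for 0 of 12190 genes by limma and by edgeR and for 0.853% by DESeq2. Before adjustment, 858 genes were below 0.05 by limma and 1007 by edgeR. On data simulated for the vehicle comparison alone, DESeq2 made 57 and 73 false calls, and limma 2 and 11, at planted log2 changes of 2 and 4. The difference of the contrasts was not simulated, so these counts do not give the false calls of that test. A p that misses the threshold at 3 rats per treatment does not show that the contrasts are alike. Mast cell genes were called higher in 5 and lower in 1 of 13 tested (median 2.41, and 4 higher without the gland library that stood apart). MCPT2 stood at 194, 312 and 242 in the tumors and at 0, 0 and 0 in the glands. HDC did not repeat its direction (-1.63 ± 1.19, not called). Checkpoint and regulatory T cell genes were higher in 11 and lower in 1 of 19 (9 higher without that library). TNFRSF4 stood at 12592, 8930.5 and 5817 against 86.8, 298 and 290 (5.46 ± 0.55), LAG3 at 2196, 6924 and 2090.3 against 96.5, 415 and 166 (4.07 ± 0.65) and FOXP3 at 489, 377 and 232 against 47, 67.1 and 109 (2.30 ± 0.62). T cell genes were higher in 11 of 19 (7 without that library). With size factors from leukocyte genes the median of all genes in the treated rats was -2.15, and the list medians were 0.53 for mast cells, 0.96 for checkpoint and regulatory T cell genes, 0.68 for T cells and -2.83 for B cells. That scaling includes the gland library that stood apart, low in leukocyte genes, and no value without it is given. The medians of the checkpoint and T cell lists with size factors from all shared genes were 2.85 and 2.57, and 2.36 and 1.79 without that library. Of the B cell list, 1 of 17 was called lower, beside 11.01% of all genes, with a median of -0.99. CD79B stood at 93.2, 95.7 and 2395 against 521, 819 and 128 (-0.45 ± 1.24), with tumor replicate 3 of the treated rats above the other tumors. The difference of the contrasts was -5.52 ± 1.63 for CD79B (adjusted p = 0.57), which did not pass.

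**Figure D5:**
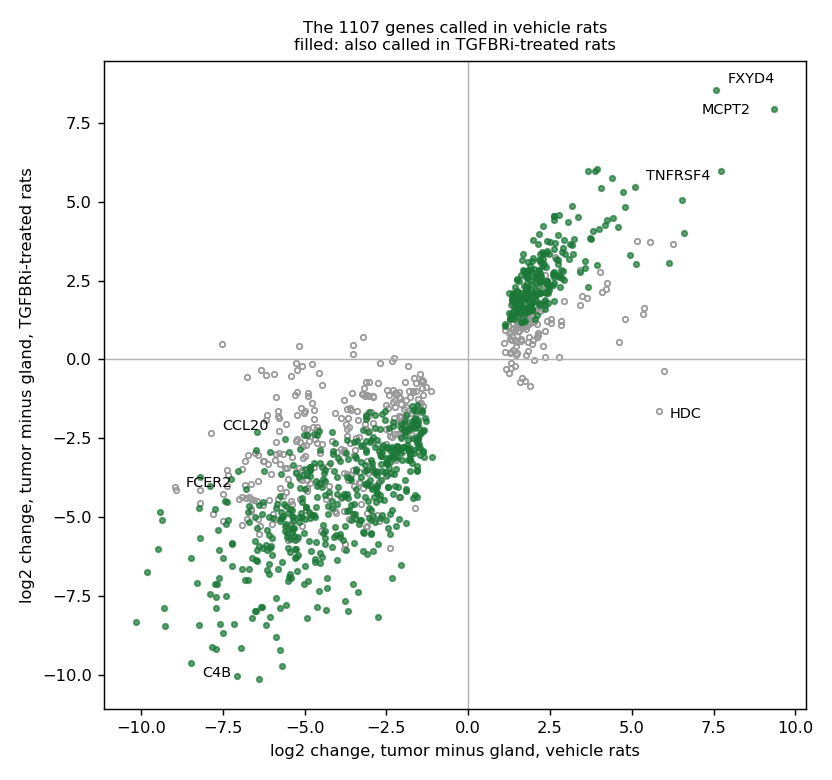
Log2 change (tumor minus gland) of the 1107 genes called in vehicle rats, in vehicle rats (horizontal) and in TGFBRi-treated rats (vertical); filled points were also called in the treated rats. Of these genes, 338 of 350 higher and 751 of 757 lower kept their sign, and HDC is among those that did not.

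In the epithelial sorts of the same vehicle rats, fibroblast genes took 10.4, 8.28 and 1.44% of reads in the EPCAM-positive cells of tumors 1, 2 and 3 and 0.109, 0.184 and 0.194% in luminal gland cells. Of 349 genes higher in the CD45-positive sorts of tumors that were also tested in epithelium, 55 were called higher and 56 lower in tumor EPCAM-positive than in gland luminal cells (11.5% and 11.4% of all genes tested there). Of 756 genes lower in the CD45-positive sorts of tumors, 129 were also called lower in the tumor epithelial cells and 195 were called higher. As a mean over the 3 rats, COL1A1 stood at 15715 RPM in tumor EPCAM-positive cells and 105.6 in luminal cells, whereas in the leukocyte sorts it was lower in tumors.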

How the data were processed

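RNA of sorted cells (below 10 ng, amplified with the SMARTer v4 kit) was sequenced as bulk libraries. Per the methods and the submitters' processing notes, the authors aligned reads to rn6 with STAR 2.5.1b, counted them per refGene gene with HTSeq without strand, and deposited counts divided by DESeq2 (1.30.1) size factors, a signal per gene, in one table for tumors and another for glands. Reads without strand cannot tell a gene from its antisense partner.

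Here each library's values were divided by its smallest value above 0, which gave whole reads within a tolerance of 0.001. The 12190 genes in both tables were rescaled together by median-of-ratios size factors. Genes with a sum of at least 10 were tested on log2(rescaled reads + 1) with limma 3.58.1 (trend, robust; R 4.3.3), two-sided, with Benjamini-Hochberg adjustment. Errors are SE, over 3 samples per group. A log2 change on this scale understates the change of low genes. edgeR 4.0.16 (quasi-likelihood) and DESeq2 1.42.0 were alternatives, and limma, edgeR and DESeq2 were tested on data simulated for the vehicle comparison. Of 200 altered genes, limma recovered 44 when the true log2 change was 2 and 164 when it was 4. edgeR recovered 27 and 170, and DESeq2 88 and 190. False calls numbered 2 and 11 for limma, 2 and 13 for edgeR and 57 and 73 for DESeq2. A gene that was not called may therefore still differ, and DESeq2 counts include more false calls. Intervals and floors cover counting error only.

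Named genes were the 10 largest changes in each direction (no overlap, mean of at least 50), the first 3 measured members of each list and up to 6 called members by size. CMA1, CAR3, CD274, CD4, CD8A, DCN, EPCAM, GATA2, HAVCR2, ICOS, ID2, IFI27, IL1RL1, LRRC32, MCPT8, SAMD3, TGFBR2, TNFRSF18 and XBP1 fall outside that rule and were chosen after their values were seen. Some genes are not reported here. The members and lists were chosen with earlier results of these data known.

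Tumor and gland libraries of one replicate number came from one rat by the labels. The correlation of their deviations from the group means was 0.020, -0.020 and 0.055 for rats 1, 2 and 3, and a fit with the rat as a block was an alternative.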

Additional observations from a re-analysis of the deposited data

How the results depend on the processing

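With the main setting 2.90% of genes tested were higher and 6.28% lower in tumors (31.6% of calls higher). The values as deposited gave 1.47% and 9.54% (13.4% of calls higher), leukocyte-gene scaling, chosen after the data were seen, 0.416% and 30.2% (1.36% of calls higher), limma without trend and robust variances 0.290% and 2.42%, and the fit without genes of the epithelial sorts 2.85% and 0.729%. edgeR called 4.15% lower and DESeq2 6.34% higher. With the replicate block (the rat) 314 genes were higher and 719 lower. Of the 235 named genes, 166 were called with the main setting. Of those 166 calls, edgeR ended 39, 1 fit of the 12 samples of both treatments 38, DESeq2 5 and the block 12. Leaving out 1 library or 1 rat ended 16 to 116. The fit by limma without trend and robust variances ended more than any of these apart from leaving out rat 3. Calls lost by edgeR include those given in the text and ANGPTL2, B2M, CDK1, CSF2, FLT1, HK1, IFIT3, KLF6, LTBP3, OAS1A, PF4, PFKFB3, S100A4, SAMD3, TGFB2 and ZFP36, and calls lost with the block TAGLN, ACTA2, PFKFB3, EGFL7, CYTIP and LY6C.

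Counts of list members also moved. Without trend and robust variances limma called 1 mast cell gene higher (7 with them), 3 checkpoint genes (11), 0 T cell genes (4), 0 MHC class I genes (4) and 0 respiratory chain genes (10), and lower 3 B cell genes (6), 3 chemokines (8), 2 lipid and phagocytic genes (10), 5 protease genes (12) and 4 NRF2 targets (8). It also called 0 leukocyte common (6), 1 cytotoxic (5) and 1 G2 and M phase gene (5) higher. Lower were 1 TGFβ pathway (7), 1 integrated stress response (7) and 1 cytokine gene (5). edgeR called 2 hypoxia and 2 immediate early genes lower (4 and 4) and 1 gene lower each for plasma cells and resident macrophages (2 and 2). For plasma cells and resident macrophages, the 12-sample fit and limma without trend and robust variances each called 0 genes lower. The 12-sample fit called 2 cytotoxic genes higher (5) and 1 basal epithelial gene lower (6). DESeq2 called 8 T cell, 7 MHC class I, 8 interferon-stimulated, 13 G2 and M phase and 26 respiratory chain genes higher. On simulated data DESeq2 made more false calls than limma or edgeR.

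Leaving out 1 library or 1 rat gave 0.251% to 3.16% higher and 1.18% to 7.70% lower. In the TGFBRi-treated rats edgeR called 7.01% lower, and leaving out 1 library gave 3.67% to 9.47% higher and 3.84% to 14.4% lower. The difference of the contrasts was called by DESeq2 for 0.853% of genes, and by limma for 0 with any 1 library left out. Under leukocyte-gene scaling TAP1 (-1.17), JUNB (-0.16) and CYTIP (-0.045) turned negative. The cause of these shifts was not tested. Few reads limit the precision of low genes, such as MCPT2 in the glands.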

Other observations

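Genes of the nuclear-encoded respiratory chain were positive in 76 of 82 genes tested (median log2 change 1.04), with 10 called higher in tumors and none lower, 16 with the rat as a block, 5 without tumor replicate 2 and 4 without gland replicate 1, 2 or 3. Cytosolic ribosomal protein genes were positive in 73 of 77 (median 0.50), with 0 called by limma (4 at an unadjusted p below 0.05, 0 called by edgeR and 1 by DESeq2). Both medians were negative under the leukocyte scaling (-0.24 and -0.80), as was that of all genes. Under that scaling no member of either list was called higher, and 5 and 14 were called lower. Outside the epithelial sorts, 2 of 29 respiratory chain genes were higher, and none of 22 ribosomal protein genes was called. In the TGFBRi-treated rats 38 and 48 of these genes were called higher (27 and 37 without the gland library that stood apart), beside 8.33% of all genes. Of 15 heat shock chaperone genes, CRYAB (-4.98 ± 0.58), HSPB1 (-2.15 ± 0.39) and BAG3 (-1.57 ± 0.42) were lower in tumors and HSPE1 higher (1.56 ± 0.43), with a list median of 0.43 and 10 positive. By edgeR neither HSPE1 (adjusted p = 0.064) nor BAG3 (0.052) was called, and HSPE1 was not called under the leukocyte scaling (adjusted p = 0.71). For this list the leukocyte scaling gave 0 higher and 5 lower, and 0 were higher and 0 lower of 5 outside the epithelial sorts. Of 14 genes tested of the lymphoid tissue list, CLU (-4.02 ± 0.33) was lower beside CCL21 (4 genes lower without tumor replicate 1), and CXCL13 was not called at 2190.3, 168 and 71.3 against 303, 594 and 952. For the lymphoid tissue list the leukocyte scaling gave 0 higher and 7 lower, and 0 were higher and 0 lower of 8 outside the epithelial sorts. The hemoglobin gene HBA-A1 stood at 1.39, 0 and 1.21 in the tumors and 65.6, 148 and 188 in the glands (-6.14 ± 1.28, adjusted p = 0.014). Of 8 adipocyte genes, CFD (-3.31 ± 0.84, adjusted p = 0.033, and 0.15 by edgeR) and CAR3 (adjusted p = 0.0498, and 0.098 by edgeR) were called lower, 0 without tumor replicate 2 or gland replicate 1 or 2 and 1 without tumor replicate 3 or gland replicate 3, while ADIPOQ was not called, at 1.39, 0 and 6.04 against 13.1, 0 and 11.5.

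RT1-BB, an MHC class II chain gene picked after its values were seen, was near 0 in both tissues of some rats. In RPM (reads scaled to a common library total) it was at 4362 and 1837 in the tumors of rats 1 and 2 and at 7.7 in that of rat 3, and at 3077 and 5040 in the glands of rats 1 and 2 and at 13.01 in that of rat 3. The EPCAM-positive cells of the same rats held 361, 215 and 0.42 RPM. In the TGFBRi-treated rats, replicate 1 was low in both tissues (12.8 in the tumor and 24.1 in the gland), while replicates 2 and 3 held 731 and 374 in the tumors and 4462 and 4519 in the glands. Rat 3 of the vehicle rats and rat 1 of the treated rats were thus low in both tissues.

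Genes listed in only 1 of the 2 tables could not be compared. The gland table alone listed 1135 genes, 80 of them at a mean of at least 50 reads in the vehicle glands and led by CYP1B1 and WNT5B, and the tumor table alone listed 503, of which 5 reached that mean in the vehicle tumors.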
